A study of Rattus norvegicus with 8 samples.

Results

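The ionotropic and metabotropic receptors for GABA and glutamate were followed in hypothalamic blocks of F344 rats 24 hrs after retinoic acid (RA). Members were all genes whose rat symbol starts with *Gabr*, *Gabbr*, *Gria*, *Grik*, *Grin* or *Grm* and goes on with a subunit letter or number. This gave 45 of the 15159 genes that could be named on the array, with 21 GABA receptor genes and 24 glutamate receptor genes. Each gene was represented by its brightest probe, and expression values played no other part in the choice. Of the 45, 36 were well above background in the RA or the vehicle channel on all 8 arrays, and these carry the results.

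Male F344 rats (strain F344N in the labels), held in SD, received 5 μl of all-trans RA or of vehicle into the third ventricle through an implanted cannula, with 4 rats in each group. The labels give the RA concentration as 1e-05 M and the vehicle as saline, whereas the methods give 1e-04 M for these rats and DMSO in saline as vehicle. Blocks that include the arcuate nuclei were compared on 8 two-colour Agilent arrays of 1 slide, each holding RNA of both treatments, with RA in Cy5 on arrays 1, 3, 6 and 8 and in Cy3 on arrays 2, 4, 5 and 7. All values below are log2 ratios of RA over vehicle after loess normalisation, so that a value below 0 is a lower level after RA. The labels do not say which arrays carry the same RNA, so that part of the spread between arrays may be technical.

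GABA-A receptors are pentameric chloride channels that carry fast inhibition, and their alpha, beta and gamma or delta subunits set location and drug sensitivity. GABA-B receptors are dimers of the products of *Gabbr1* and *Gabbr2* that act slowly through G proteins. AMPA (*Gria*), kainate (*Grik*) and NMDA (*Grin*) receptors are tetrameric cation channels opened by glutamate, and the metabotropic receptors (*Grm*) act through G proteins and are sorted into groups I, II and III. In the hypothalamus these receptors carry most of the fast input to neuroendocrine and feeding neurons.

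Few receptor genes passed the unadjusted threshold of the study's methods, and those that did were lower after RA. The methods call a gene at p values below 0.01 without adjustment. At that level 3 of the 45 genes fell and 0 rose in limma, where 0.792% of all named genes fell and 3.52% rose. Among the 36 genes above background 3 fell and 0 rose, where 1.14% of named genes above background fell and 4.77% rose. The 3 were *Gria4*, *Grin3b* and *Grm8*, all of them glutamate receptor genes, with log2 fold changes between -0.19 and -0.28. None had an adjusted p under 0.05 (0 in limma, where 7 members had an unadjusted p under 0.05, all of them lower, and 4.57% of named genes fell and 8.48% rose at that level), and the same held for all named genes (0% called, the lowest adjusted p of any probe being 0.222). With the pairs of arrays as a random block 0 members and 1.27% of named genes had an adjusted p under 0.05, and the lowest adjusted p of a member was 0.0778, for *Grm8*. Most members lay close to 0. For 35 of the 36 genes above background the 95% interval of the change lay within 1.5-fold in either direction. This held for *Gria4*, *Grin3b* and *Grm8* too, so that the bound does not separate them from the other members.

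**Figure D1:**
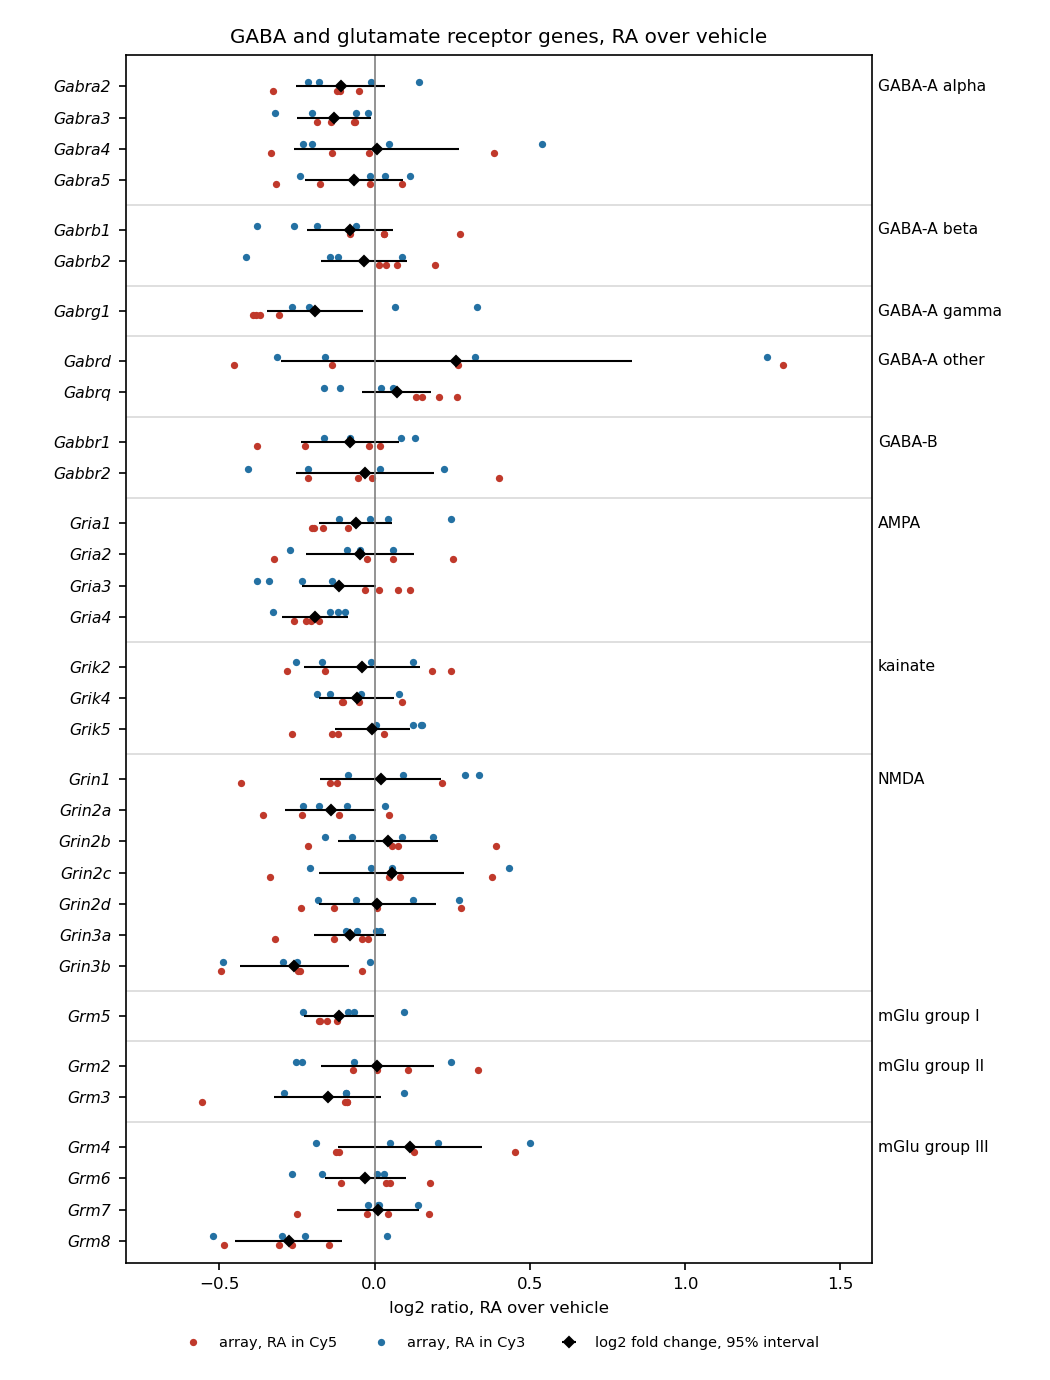
Log2 ratio of RA over vehicle (x axis) for 32 of the 36 receptor genes well above background, sorted by receptor class. Small points are single arrays (red with RA in Cy5, blue with RA in Cy3), diamonds the log2 fold change and bars its 95% interval from limma. Most diamonds lie slightly left of 0, and *Gabrd* has by far the widest interval, from -0.30 to 0.83.

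Among the 36 genes, 26 had a log2 fold change below 0 and 10 above 0, with a median of -0.06. Over all named genes above background 53.1% were below 0 and the median was -0.01. The median was -0.07 for the 14 GABA receptor genes and -0.05 for the 22 glutamate receptor genes. By dye order it was -0.07 where RA was in Cy5 and -0.06 where it was in Cy3. Arrays 1 to 4, which form the first slide row, gave -0.05, and arrays 5 to 8 of the second row gave -0.10. On single arrays the median of the 36 genes ran from -0.19 on array 6 to 0.01 on array 2 and was below 0 on 7 of 8. Neuron markers, such as *Snap25* and *Syt1*, had a median of -0.09, with 12 of 15 below 0 and array medians from -0.15 to -0.03. The share of the neuron markers' shift in that of the receptor genes was not tested, and in blocks of tissue fewer cells of a type and less RNA per cell cannot be told apart.

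The 3 genes that fell are shown with their upstream sequence, where RefSeq (GRCr8) gives one, because RA acts through nuclear receptors that bind DNA. These receptors recognise pairs of the hexamer AGGTCA, placed as direct repeats with a fixed spacing. An entry was found for 30 of the 45 receptor genes, and the 250 bases before the start of the gene were searched on both strands. *Grin3b* had no entry, so that its upstream bases were not searched. AGGTCA stood in 2 of the 30 (6.67%), against 14.1% of 33469 RefSeq promoters. The 2 were *Grm8*, which is one of the genes that fell, and *Grin2c*, which did not pass the test. The repeat with 5 bases of spacing, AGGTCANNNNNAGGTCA, was in 0 of the 30 and in 0.00896% of all promoters. With 1 base of spacing (AGGTCANAGGTCA) the shares were 0 of 30 and 0.0508%, and with 2 (AGGTCANNAGGTCA) 0 of 30 and 0%. Each repeat holds the single hexamer as well. Only these exact letters were searched, and such repeats were so rare in all promoters that 0 of 30 cannot set the receptor genes apart. The upstream bases of the receptor genes had a median GC content of 58.6%, against 51.2% for all promoters. The sequences, written 5′ to 3′ on the strand of the gene, lie at chr8:10319882-10320131 (minus strand) for *Gria4*, at chr4:57687507-57687756 (minus strand) for *Grm8* and at chr10:101005139-101005388 (minus strand) for *Grin2c*. Capitals mark TGACCT, the reverse complement of AGGTCA, which begins 183 bases before the start of *Grm8* and 35 bases before that of *Grin2c*.
Gria4: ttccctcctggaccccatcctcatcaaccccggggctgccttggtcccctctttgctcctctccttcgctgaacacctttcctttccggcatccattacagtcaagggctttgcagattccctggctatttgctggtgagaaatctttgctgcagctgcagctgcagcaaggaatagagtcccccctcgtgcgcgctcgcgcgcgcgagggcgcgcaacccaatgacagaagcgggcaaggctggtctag
Grm8: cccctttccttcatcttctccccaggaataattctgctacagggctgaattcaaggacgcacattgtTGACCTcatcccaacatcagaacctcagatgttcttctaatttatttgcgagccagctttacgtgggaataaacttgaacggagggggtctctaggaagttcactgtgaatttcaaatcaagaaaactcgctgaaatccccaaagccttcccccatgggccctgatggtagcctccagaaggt
Grin2c: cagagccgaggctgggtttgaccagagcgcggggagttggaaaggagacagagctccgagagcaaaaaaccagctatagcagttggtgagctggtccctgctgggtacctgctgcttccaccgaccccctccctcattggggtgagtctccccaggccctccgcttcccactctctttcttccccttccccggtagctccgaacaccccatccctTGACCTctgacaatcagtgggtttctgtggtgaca

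*Gria4* encodes GluA4, an AMPA receptor subunit with fast kinetics. On the arrays with RA in Cy5 (1, 3, 6 and 8) its log2 ratio was -0.22, -0.26, -0.18 and -0.20, and on those with RA in Cy3 (2, 4, 5 and 7) it was -0.09, -0.14, -0.12 and -0.33. All 8 values were below 0, and the dye orders overlapped. The log2 fold change was -0.19 with a standard error of 0.05 (unadjusted p = 0.00343, adjusted p = 0.268 in limma). Its mean was -0.18 over slide row 1 and -0.21 over slide row 2. A second probe of the gene had values from -0.50 to 0.14, and its log2 fold change of -0.12 did not pass (unadjusted p = 0.12 in limma).

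*Grin3b* encodes GluN3B, an NMDA receptor subunit that binds glycine and lowers calcium entry. Its log2 ratio was -0.50, -0.04, -0.24 and -0.25 on arrays 1, 3, 6 and 8, and -0.49, -0.01, -0.25 and -0.29 on arrays 2, 4, 5 and 7. All 8 values were again below 0, but their size fell into couples of arrays of opposite dye, with 1 and 2 the lowest and 3 and 4 close to 0. The log2 fold change was -0.26 with a standard error of 0.07 (unadjusted p = 0.00982, adjusted p = 0.306 in limma). The mean was -0.26 in each dye order and in each slide row. The neurofilament genes *Nefm* (-0.82 and -0.67) and *Nefl* (-0.76 and -0.48) also had their lowest values on arrays 1 and 2. Both fell over the 8 arrays, by 0.39 and 0.30 on the log2 scale, with unadjusted p values of 0.00547 and 0.00982 in limma, and their part in the change of *Grin3b* was not tested.

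*Grm8* encodes mGlu8, a presynaptic group III receptor that dampens transmitter release. Its log2 ratio was -0.27, -0.15, -0.49 and -0.31 on arrays 1, 3, 6 and 8, and -0.22, 0.04, -0.30 and -0.52 on arrays 2, 4, 5 and 7. It was below 0 on 7 of 8 arrays, lowest on arrays 6 and 7 and slightly above 0 on array 4. The log2 fold change was -0.28 with a standard error of 0.07 (unadjusted p = 0.00655, adjusted p = 0.288 in limma). Slide row 1 alone gave -0.15, which did not pass (unadjusted p = 0.0704), and slide row 2 alone gave -0.40, which did (unadjusted p = 0.00377 in limma).

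**Figure D2:**
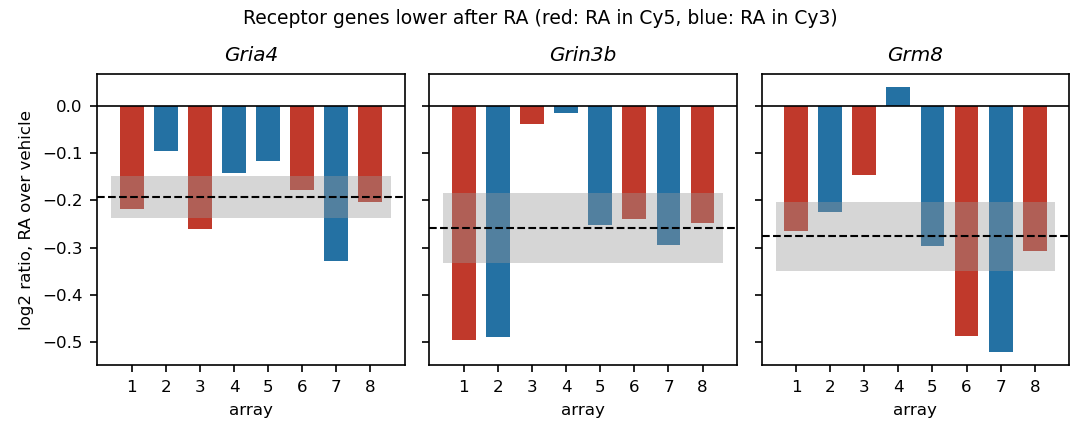
Log2 ratio of RA over vehicle (y axis) on each of the 8 arrays (x axis) for the 3 receptor genes that fell. Bars are single arrays (red with RA in Cy5, blue with RA in Cy3), the dashed line is the log2 fold change and the grey band 1 standard error on each side. All bars are below 0 except that of *Grm8* on array 4, at 0.04.

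The calls often failed when arrays were left out, which leaves fewer pairs of arrays for every gene. All named genes called were 654 with all arrays and 320 to 739 in the fits below. They were 385 without arrays 6 and 7 and 320 without arrays 5 and 8. The part of the lost pairs in the failed calls was not tested. In the 16 fits that each left out 1 array of either dye order, *Gria4* passed in 5, *Grin3b* in 7 and *Grm8* in 6, with log2 fold changes below 0 in all of them. Without arrays 6 and 7 the unadjusted p in limma was 0.0114 for *Gria4*, 0.0271 for *Grin3b* and 0.0192 for *Grm8*, and without arrays 5 and 8 it was 0.0105, 0.0258 and 0.022, so that 0 of the 3 remained past the threshold in either case. The log2 fold changes without arrays 5 and 8 were -0.20, -0.26 and -0.27, and without arrays 6 and 7 they were -0.17, -0.26 and -0.20. Each of the 3 passed in all 24 ways of pairing the arrays. This is no further check, because the p used for the call was already the largest over these pairings. Flipping the signs of the 4 pair means in every way (exact, two-sided) gave the smallest p that 4 pairs allow for each gene, which is above 0.05.

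Among AMPA receptor genes all 4 had a log2 fold change below 0, and the median of the class was below 0 on 8 of 8 arrays, from -0.30 on array 7 to -0.03 on array 3. The class median was -0.09, and 1 of the 4, *Gria4*, passed. *Gria1* and *Gria2*, the subunits of the commonest AMPA receptors, had log2 fold changes of -0.06 and -0.05. The second probe of *Gria2* had -0.13 (unadjusted p = 0.0869 in limma). *Gria3* had -0.11 (unadjusted p = 0.0597 in limma), with 0.08, 0.01, -0.03 and 0.11 where RA was in Cy5 and -0.23, -0.34, -0.14 and -0.38 where it was in Cy3. The dye orders of *Gria3* did not overlap, and its second probe had a log2 fold change of 0.01.

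The 3 kainate receptor genes above background stayed near 0, at -0.04 for *Grik2*, -0.06 for *Grik4* and -0.01 for *Grik5*. *Grik4*, which encodes a high-affinity subunit, had the lowest value. It had -0.10, 0.09, -0.05 and -0.10 on arrays 1, 3, 6 and 8, and -0.19, -0.04, -0.14 and 0.08 on arrays 2, 4, 5 and 7, with both signs in each dye order.

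NMDA receptor genes had a class median of 0.01, with 3 of 7 below 0. The obligatory subunit gene *Grin1* lay at 0.02 (95% interval -0.18 to 0.21), and its second probe also had 0.02. *Grin2b*, *Grin2c* and *Grin2d*, which encode glutamate-binding subunits, had 0.04, 0.06 and 0.01. *Grin2a*, of the same kind, had -0.14 (unadjusted p = 0.0581 in limma) and was below 0 on 6 of 8 arrays. *Grin3a*, the closest relative of *Grin3b*, had -0.08 with the brightest probe and -0.16 with the second (unadjusted p = 0.149 and 0.0341 in limma).

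Of the metabotropic receptors, the group I gene *Grm5*, which encodes a receptor coupled to phospholipase C, had a log2 fold change of -0.11 (unadjusted p = 0.0498 in limma). Single arrays gave -0.18, -0.17, -0.12 and -0.15 where RA was in Cy5, and -0.07, -0.23, 0.09 and -0.08 where it was in Cy3, so that array 5 alone was above 0. In group II, *Grm3*, which astrocytes as well as neurons express, had -0.15 (unadjusted p = 0.0782 in limma). *Grm3* had -0.09, -0.09, -0.56 and -0.09 on arrays 1, 3, 6 and 8, and -0.09, 0.10, -0.09 and -0.29 on arrays 2, 4, 5 and 7. Its lowest values were on arrays 6 and 7, and without them its log2 fold change was -0.06. In group III, *Grm4*, *Grm6* and *Grm7* had 0.11, -0.03 and 0.01, beside -0.28 for *Grm8*. The 95% interval was -0.12 to 0.34 for *Grm4* and -0.12 to 0.14 for *Grm7*.

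No GABA receptor gene passed the threshold of 0.01. At an unadjusted p under 0.05 in limma 3 of the 21 were lower, *Gabra3* and *Gabrg1* among them, where 4.57% of named genes fell. *Gabra3*, an alpha subunit gene, was below 0 on all 8 arrays, as were *Gria4* and *Grin3b* and 1.8% of all named genes (2.5% of those above background). No member was above 0 on all 8 (0, against 4.07% of named genes). *Gabra3* had -0.19, -0.14, -0.06 and -0.06 on arrays 1, 3, 6 and 8, and -0.02, -0.32, -0.20 and -0.06 on arrays 2, 4, 5 and 7. The log2 fold change was -0.13 with a standard error of 0.05 (unadjusted p = 0.0342 in limma), and the dye orders overlapped.

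*Gabrg1*, a gamma subunit gene, had -0.31, -0.38, -0.37 and -0.39 with RA in Cy5 and 0.33, -0.21, -0.27 and 0.07 with RA in Cy3. The dye orders of *Gabrg1* did not overlap. Its log2 fold change was -0.19 over all arrays (unadjusted p = 0.0218), -0.36 with RA in Cy5 alone (unadjusted p = 0.000226) and -0.02 with RA in Cy3 alone (unadjusted p = 0.847, all in limma).

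Other alpha and beta subunit genes differed less. *Gabra2* and *Gabra5* had log2 fold changes of -0.11 and -0.07, and *Gabra4* had 0.01. *Gabrb1* and *Gabrb2*, whose products hold part of the GABA binding site, had -0.08 and -0.03. *Gabrb1* had 0.27, 0.03, -0.08 and 0.03 with RA in Cy5 and -0.06, -0.38, -0.26 and -0.19 with RA in Cy3, where all 4 values were below 0. *Gabrq*, which encodes the theta subunit found in the hypothalamus, had 0.27, 0.14, 0.15 and 0.21 with RA in Cy5 and 0.02, -0.11, -0.16 and 0.06 with RA in Cy3. The dye orders of *Gabrq* did not overlap either, and its log2 fold change was 0.07 (unadjusted p = 0.179 in limma). The GABA-B receptor genes *Gabbr1* and *Gabbr2* had -0.08 and -0.03, with 95% intervals from -0.24 to 0.08 and from -0.25 to 0.19. *Gabbr1* had 0.02, -0.23, -0.38 and -0.02 with RA in Cy5 and 0.13, -0.08, 0.09 and -0.16 with RA in Cy3, and 5 of its 8 values were below 0.

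*Gabrd* had the largest differences between arrays of all members. It encodes the delta subunit of extrasynaptic GABA-A receptors, which carry tonic inhibition and are abundant in the thalamus. Its log2 ratio was 0.27, -0.14, -0.45 and 1.32 on arrays 1, 3, 6 and 8, and 0.32, -0.16, 1.26 and -0.31 on arrays 2, 4, 5 and 7. Arrays 5 and 8 stood far above the others, and 4 of the 8 values were below 0. The log2 fold change was 0.26 with a standard error of 0.24 and did not pass (unadjusted p = 0.309 in limma). Without arrays 5 and 8 it was -0.08.

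The same 2 arrays, of opposite dye, had the highest ratios for 8 of the 36 receptor genes above background (22.2%), against 6.77% of all named genes above background. Among them, picked here because of these values, were *Gabra4*, *Gabrd*, *Gabbr2*, *Grin2a*, *Grin2c*, *Grm2* and *Grm4*. *Gabra4*, whose product assembles with the delta subunit, had 0.54 and 0.38 on arrays 5 and 8 and between -0.33 and 0.05 on the others. *Grin2c* had 0.43 and 0.38 on arrays 5 and 8 and between -0.34 and 0.08 on the others. *Grm4* had 0.50 and 0.45 on arrays 5 and 8 and between -0.19 and 0.21 on the others, and its second probe had 0.47 and 0.50. *Grm2* had 0.25 and 0.33 on arrays 5 and 8 and between -0.25 and 0.11 on the others. Arrays 3, 4, 6 and 7 lay mostly below 0 for these genes, and their log2 fold changes over all arrays were 0.01 for *Gabra4* and *Grm2* and 0.06 for *Grin2c*. Arrays 5 and 8 were both lowest for *Gabra2* and *Gabra5* only, 5.56% of the 36 against 6.06% of all genes above background.

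Some markers of brain regions differed on arrays 5 and 8 as well. Of 8 thalamic genes, a list written after these values had been seen, 6 had a probe, and their median was 0.70 on arrays 5 and 8 and between -0.24 and 0.10 on the others. *Prkcd*, a kinase gene of thalamic relay neurons, had 1.39 and 1.48 there. Hypothalamic neuron genes went the other way, with medians of -0.47 and -0.43 on arrays 5 and 8 and between -0.01 and 0.16 on the others. *Agrp* and *Pomc*, which mark arcuate feeding neurons, had -1.11 and -1.11 on array 5 and -1.04 and -1.08 on array 8. Another list, of neurons outside the hypothalamus, did not set arrays 5 and 8 apart. Its median over the 8 genes with a probe, 4 of them well above background, was -0.14 and -0.13 there, -0.15 and -0.17 on arrays 6 and 7 and between -0.03 and 0.05 on the others. Neuron markers as a whole had -0.06 and -0.03 on arrays 5 and 8. The part of these differences between blocks in the receptor genes' values was not tested.

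**Figure D3:**
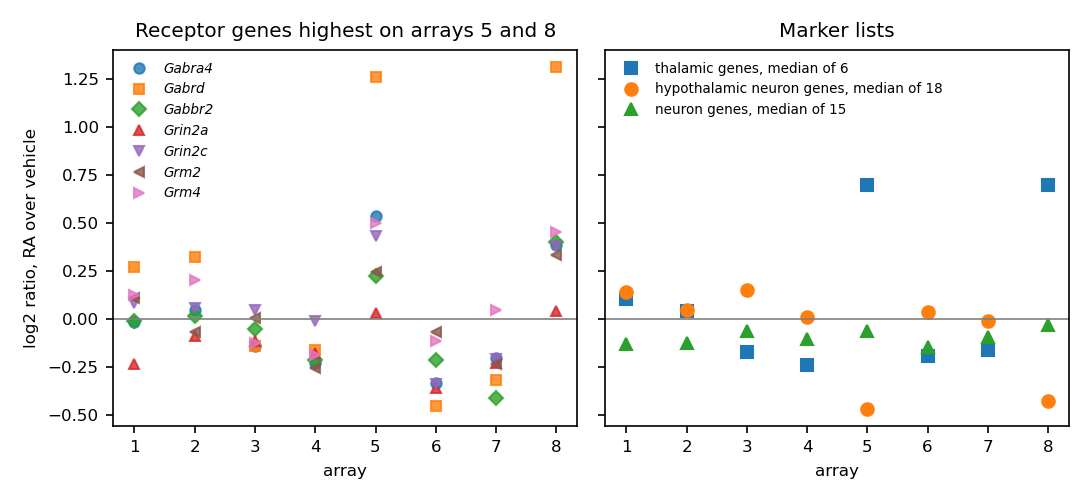
Log2 ratio of RA over vehicle (y axis) on each array (x axis) for 7 receptor genes with their highest ratios on arrays 5 and 8 (left) and the medians of 3 marker lists (right). On arrays 5 and 8 the thalamic list is at 0.70 and *Gabrd* at 1.26 and 1.32, while the hypothalamic neuron list is at -0.47 and -0.43.

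Arrays 6 and 7, also of opposite dye, were both lowest for 7 of the 36 genes (19.4%), against 9.32% of all named genes above background, and both highest for 1, *Grin2d* (2.78% against 11.2%). Among them were *Gabrd*, *Gabbr2*, *Gria2*, *Grin2c*, *Grm3* and *Grm8*. *Gria2*, which sets the calcium permeability of AMPA receptors, had -0.32 and -0.27 on them and between -0.09 and 0.25 on the others. Its second probe differed, with -0.09 on array 6, -0.42 on array 7 and -0.37 on array 5. Choroid plexus genes had medians of -1.35 and -1.27 on arrays 6 and 7 and between 0.03 and 0.49 on the others. Reactive astrocyte genes had their highest medians on arrays 6 and 7, 2.67 and 2.47. Their medians were also high on arrays 5 and 8, 1.69 and 2.13, against 0.52 to 0.86 on arrays 1 to 4. The part of these lists in the receptor genes' values was not tested.

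Of the genes that did not reach the background criterion, 6 (*Gabra6*, *Gabre*, *Gabrp*, *Gabrr1*, *Gabrr2* and *Gabrr3*) were not well above background in either channel on any array. *Gabra6* is best known from cerebellar granule cells and the *Gabrr* genes from the retina. *Gabrg3* was well above background on 4 arrays in both channels, *Grik1* on 7 in both, and *Grik3* on 4 in the RA and 5 in the vehicle channel. The second probe of *Grik1* was well above background on 8 arrays in both channels, with a log2 fold change of 0.01. *Grm6*, best known from retinal bipolar cells, passed the criterion with 7 arrays in the RA and 8 in the vehicle channel. No direction is given for the brightest probes of the 9 genes that did not meet it.

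The enzymes, transporters and scaffold proteins around these receptors moved as little. Of the genes for GABA synthesis, packing and uptake, 7 of 8 had a probe, and all 7 had log2 fold changes below 0 with a median of -0.09. At an unadjusted p under 0.01 in limma 0 of them passed, where 0.792% of all named genes fell and 3.52% rose. They included *Gad2*, which makes GABA (-0.11), *Slc32a1*, which loads it into vesicles (-0.12), and *Slc6a13*, a GABA transporter of the meninges (-0.14). *Slc6a13* was lowest on arrays 5 and 8, at -0.83 and -0.71, and lay between -0.12 and 0.45 on the others. Without arrays 5 and 8 its log2 fold change was 0.06. The chloride transporters *Slc12a5* and *Slc12a2*, which set whether GABA inhibits, had -0.12 and -0.09. Among 11 measured genes of GABA receptor anchoring and auxiliary proteins the median was -0.02 and 0 passed. *Kctd8*, an auxiliary subunit gene of GABA-B receptors, came closest, with -0.26 and an unadjusted p of 0.0106 in limma, and *Gabarapl1* had -0.16.

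On the glutamate side, 1 of 10 genes for synthesis, packing and uptake fell, against 0.792% of all named genes. This was *Glud1*, a mitochondrial glutamate dehydrogenase, with a log2 fold change of -0.21 and a standard error of 0.05 (unadjusted p = 0.00542, adjusted p = 0.281 in limma). Its log2 ratio was -0.08, -0.16, -0.33 and -0.14 with RA in Cy5 and -0.21, -0.17, -0.20 and -0.38 with RA in Cy3, below 0 on all 8 arrays. *Slc17a6*, the vesicular glutamate transporter gene of hypothalamic and thalamic neurons, had -0.13 and was above 0 only on arrays 5 and 8 (0.21 and 0.14). The 21 scaffold genes had a median of -0.04 and the 11 measured genes of auxiliary subunits and delta receptors -0.07, with 0 passing in either list. *Dlg2*, which anchors NMDA receptors, had -0.16, and *Neto1*, a kainate receptor auxiliary subunit gene, -0.14.

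**Figure D4:**
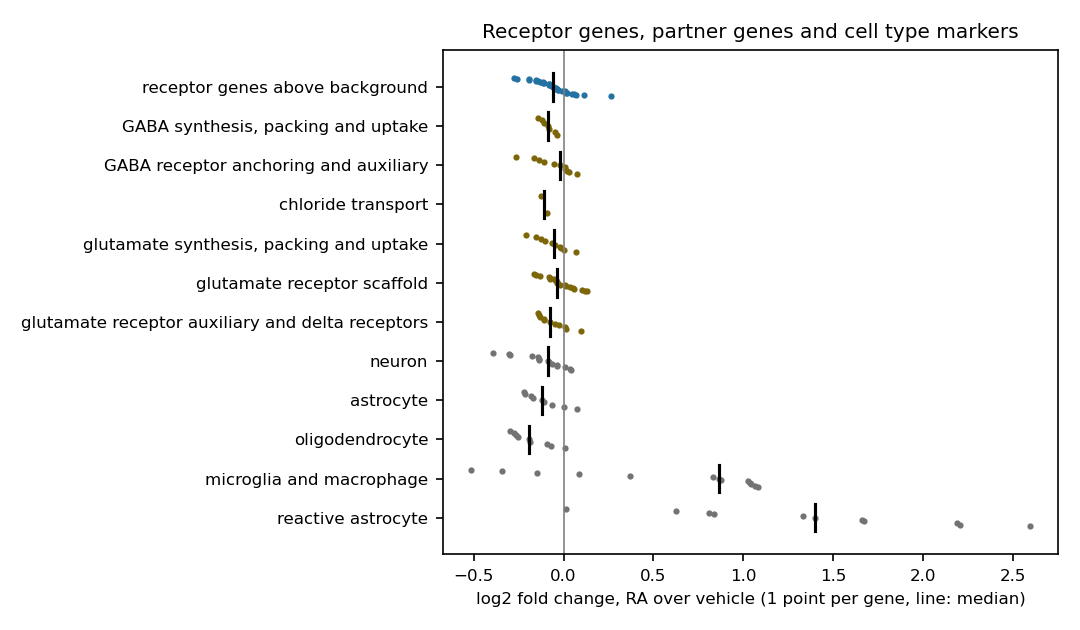
Log2 fold change of RA over vehicle (x axis) for the 36 receptor genes above background, the partner gene lists and 5 cell type marker lists (all genes with a probe). Each point is 1 gene and each vertical line the median of its list. Receptor and partner genes lie within a narrow band around 0, with medians from -0.11 to -0.02, while reactive astrocyte and microglia markers reach medians of 1.40 and 0.87.

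As for the tissue as a whole, 16 of the 18 hypothalamic neuron genes with a probe were well above background, *Nr5a1* and *Kiss1* being the exceptions. Their median log2 fold change was -0.06, and 1 of them fell, *Cartpt* (-0.42, unadjusted p = 0.00198 in limma). Over all named genes 0.792% fell and 3.52% rose at an unadjusted p under 0.01. Of the reactive astrocyte markers 10 of 11 rose, with a median of 1.40, and of the microglia and macrophage markers 8 of 13 rose and 1 fell, with a median of 0.87. The medians were -0.12 for astrocytes, where 1 of 9 fell, -0.19 for oligodendrocytes, where 2 of 9 fell, -0.04 for tanycytes and ependyma, where 1 of 7 rose, -0.14 for choroid plexus, -0.01 for endothelium and -0.10 for neurons outside the hypothalamus, where 0 passed. The part of these cell types in the receptor genes' ratios was not tested.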

How the data were processed

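RNA from hypothalamic blocks was measured on 8 two-colour arrays. Per array the authors deposited image output of Feature Extraction 10.7.3.1, with linear Cy3 and Cy5 intensity per spot and a log10 ratio of the dyes. A further deposited table holds normalised log2 ratios, which matched loess ratios without background correction, already turned to RA over vehicle (Pearson's r 0.985 to 1.00 across probes, medians of -0.003 to 0.01). Their methods name limma, loess, averaging of identical probes, dye-swaps as blocking variable and an unadjusted p under 0.01. No background correction is given in the sources used here.

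The ratios used here were made in limma 3.58.1 under R 4.3.3. Background was removed from median spot signals with normexp (offset 50, fitted to all spots). Control spots and outlier spots (0.913% to 2.42% of an array) were then left out, saturated spots stayed in, and loess within arrays and averaging over the spots of a probe followed. On an array, 57.4% to 74.6% of probes were well above background for RA and 61.2% to 74.5% for vehicle. Precision is limited by the number of rats, 4 with RA and 4 with vehicle. The methods describe dye-swaps of the same samples, so the 8 arrays are not 8 independent comparisons. Members not well above background were left out of the medians and directions given by class. They stayed in the counts out of 45 and in the medians over all 45 given for the alternatives. A few members enter counts and medians but are not reported here singly.

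Each of 30367 probes was tested in limma on 4 means, each over 2 arrays of opposite dye. Since the pairs are not stated, the fit was repeated for all 24 pairings, and the one with the largest p supplied p, standard error and 95% interval, with Benjamini-Hochberg adjustment over all probes. Transcript accessions without versions were matched to RefSeq genes of GRCr8, which named 18006 probes and left 12361 unnamed.

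The receptor genes and all lists were chosen with earlier results of these data known, and the thalamic list after its values had been seen. Values on every array are given for members with an unadjusted p under 0.01 or 1 sign on all 8 arrays and for the largest rise and fall of a class. Of the partner, neuron and hypothalamic neuron lists, genes with an unadjusted p under 0.01 are named. Up to 3 genes with the largest change are also named for the partner lists. For the other marker lists the genes that passed are counted but not named. *Gabrq*, *Gria3*, the members highest or lowest on a couple of arrays and single marker genes (*Prkcd*, *Agrp*, *Pomc*, *Nefl*, *Nefm*) were described after their values were seen. The test was checked on simulated data. Alternatives were other background corrections, ratios, scalings, filters, pairings, blocks, dye orders, slide rows, probe rules and arrays left out.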

Additional observations from a re-analysis of the deposited data

Results flagged for a closer look

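*Grm3* on array 6 stood apart from the other arrays with RA in Cy5. Its log2 ratio there was -0.56, whereas the other 3 lay between -0.09 and -0.09. Among the 90 groups of 4 arrays searched (45 genes in both dye orders) this was the only one with such an array by Dixon's criterion, which chance meets in about 1 of 20 groups. On array 7, of the other dye order, *Grm3* had -0.29.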

How the results depend on the processing

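No receptor gene rose at an unadjusted p under 0.01 in limma under any of the alternatives run (0 in each). *Gria4*, *Grin3b* and *Grm8* had log2 fold changes below 0 in all 35 alternatives and passed in 19, 15 and 21 of them. The number of receptor genes that fell, 3 of 45, was 0 with plain background subtraction, on the first slide row alone and without arrays 6 and 7 or 5 and 8. It was 1 with the image software's log ratio, on the second slide row alone and with the mean over the probes of a gene, and 6 in the single pairing with the most calls. In that pairing 3 receptor genes had an adjusted p under 0.05, in place of 0, as they did with 8 independent arrays and with slide row as a block. The median over all 45 receptor genes, -0.04 in the main setting, was -0.094 with the image software's log ratio. Of partner genes, 1 was called in the fit reported. This was 0 with the image software's log ratio, on the first slide row and without arrays 6 and 7 or 5 and 8, 2 with scale normalisation, the random block, the pairing with the fewest calls, RA in Cy5 alone and the second slide row, 5 with independent arrays, 6 in the pairing with the most calls and with RA in Cy3 alone, and 7 with slide row as a block. All named genes called were 654, but 172 with plain subtraction, 216 with the image software's log ratio, 1063 with the random block, 1509 with independent arrays, 1891 in the pairing with the most calls, 1212 with RA in Cy5 alone, 1234 with RA in Cy3 alone, 1886 with slide row as a block, 385 without arrays 6 and 7 and 320 without arrays 5 and 8. Leaving out 1 array of each dye order in turn gave 0 to 3 receptor genes lower, 0 to 3 partner genes, 320 to 739 named genes and a median of -0.06 to -0.03 over the 45. The causes of these differences were not tested. The labels do not say which arrays share RNA, so the pairs in these fits were assumed ones. Dim probes bound what can be seen for the 9 receptor genes that did not meet the background criterion. *Grik1* is the exception, as its second probe met it.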
